A study of Mus musculus with 6 samples.

Results

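Voltage-gated calcium channels were examined through 10 genes of their pore-forming alpha1 and accessory alpha2delta subunits, taken from the deposited gene table by symbol: Cacna1a, Cacna1b, Cacna1c, Cacna1d, Cacna1e, Cacna1g, Cacna1h, Cacna1i, Cacna2d1 and Cacna2d2. All 10 were found among its 37475 genes, and all 10 passed the filter on low counts that left 22114 genes for testing. The animals were wild-type mice whose spinal cord was bruised by an impactor at T10 and collected on day 3. Of the 6 libraries, 3 came from mice injected daily into the peritoneum with syringin at 50 mg/kg for 3 days and 3 from mice given PBS, the vehicle, in the same way. Syringin is a plant phenylpropanoid glucoside. Both groups were injured and uninjured cord was not analysed here, so every value compares injured cord with injured cord. The labels call the libraries biological replicates and give no more on how mice map to libraries.

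An alpha1 subunit forms the pore, senses voltage and sets the channel type, while alpha2delta subunits are largely extracellular proteins that raise the number of channels at the surface and at release sites. Channels of the P/Q, N and R types carry the calcium that triggers transmitter release, L-type channels couple activity to gene expression and to sustained firing, and T-type channels open near the resting potential and support burst firing. In the cord they set release from the central endings of sensory neurons and the excitability of dorsal horn and motor neurons. N-type channels are the target of the spinal analgesic ziconotide, and the alpha2delta protein of Cacna2d1 binds gabapentin.

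The alpha1 genes divide into 2 classes by the acidic residue that each of their 4 repeats places in the ion filter of the pore. The coding sequence of the pore loop of repeat 3 is shown for each, since the T-type genes are compared with each other below. Each line holds 36 bases of a GRCm38 transcript of the GENCODE annotation, 5′ to 3′, with the filter codon in capitals.
Cacna1a: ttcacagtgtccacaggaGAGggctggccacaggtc
Cacna1b: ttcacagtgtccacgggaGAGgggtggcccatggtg
Cacna1c: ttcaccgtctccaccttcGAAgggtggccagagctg
Cacna1d: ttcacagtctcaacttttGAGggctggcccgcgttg
Cacna1e: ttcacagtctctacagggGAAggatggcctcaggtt
Cacna1g: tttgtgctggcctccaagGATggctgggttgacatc
Cacna1h: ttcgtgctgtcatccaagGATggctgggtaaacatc
Cacna1i: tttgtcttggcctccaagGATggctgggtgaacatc
In Cacna1a, Cacna1b, Cacna1c, Cacna1d and Cacna1e the filter codon encoded glutamate in all 4 repeats. In the T-type genes Cacna1g, Cacna1h and Cacna1i it encoded glutamate in repeats 1 and 2 and aspartate in repeats 3 and 4. Over these 36 bases the T-type genes shared 30 to 32 bases with each other and 14 to 20 with the other alpha1 genes. By these bases Cacna1h lies with Cacna1g and Cacna1i.

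Library totals were 65579117 to 78843034 estimated counts for syringin and 66771594 to 74495190 for PBS. Among low counts, multiples of 4 were over-represented, with 4 itself 1.5 times as frequent as the mean of its neighbours, so counting error may be larger than these totals imply. Libraries also differed in transcripts of sensory ganglia, which are not part of the cord: the mean log2 level of 10 such markers, relative to the mean of the 6 libraries, was 3.19, -3.38 and 1.89 in the syringin and 3.29, -2.17 and -2.82 in the PBS libraries 1, 2 and 3. Scn10a, the sodium channel gene of nociceptors, had 3558, 0 and 818 counts in the syringin libraries and 3429, 15 and 0 in the PBS libraries. Skeletal muscle markers were low, their 6 genes summing to 1.81 to 2.21 counts per 1000000 (CPM) in syringin and 2.23 to 5.97 CPM in PBS libraries.

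Of the 10 genes, 4 were lower with syringin and none was higher. They were Cacna1i and Cacna1g of the T type, Cacna1e of the R type and Cacna2d2 of the accessory subunits. The test was edgeR's quasi-likelihood test at a Benjamini-Hochberg adjusted p of 0.05 over all genes tested, by which 5.01% of all genes were called, 3.39% lower and 1.62% higher. The fold changes of 9 of the 10 genes were negative, and Cacna1h had a positive one. Over the 10 genes the median log2 fold change, syringin over PBS, was -0.43, beside 0.01 over all genes tested. In the 4 called genes every syringin library lay below every PBS library, as in 15.3% of all genes tested. The other 6 genes had overlapping groups. All fold changes below are log2, syringin over PBS, ± SE over 3 and 3 libraries, and CPM include the TMM composition factors of edgeR.

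**Figure D1:**
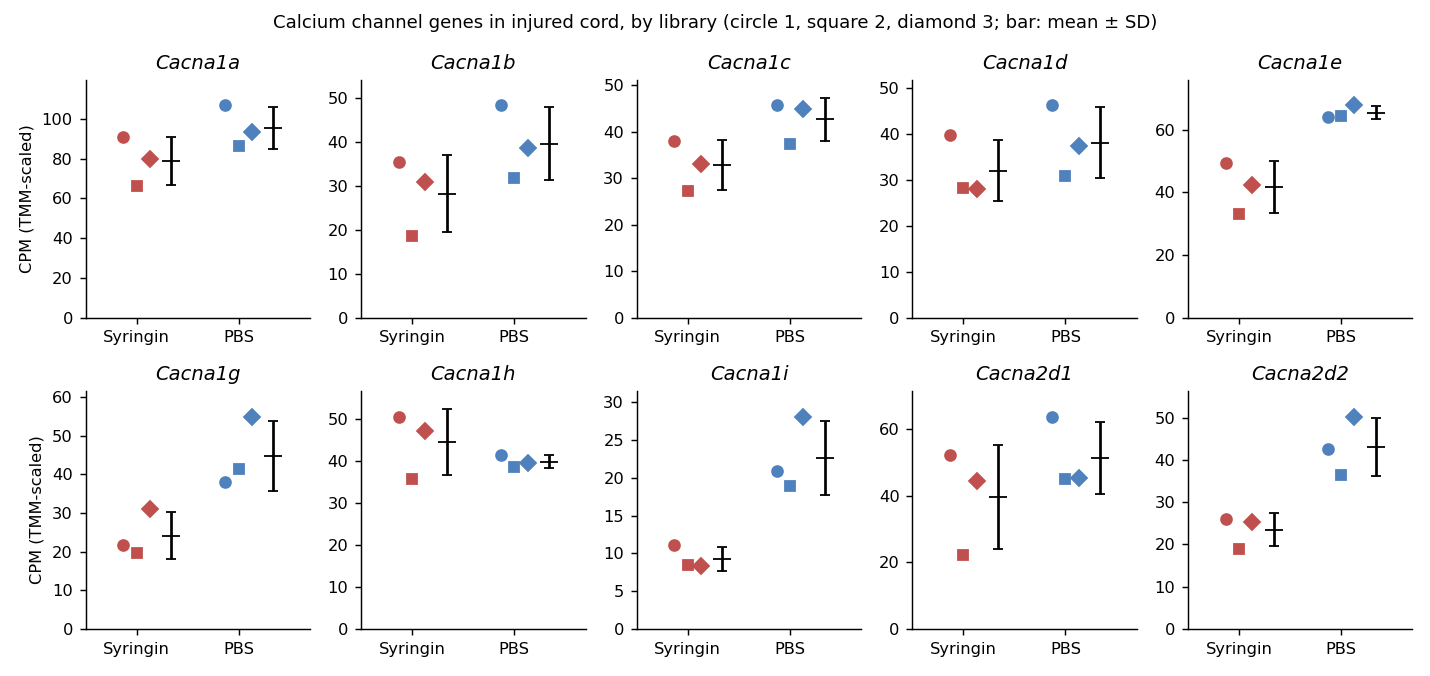
Level of each gene in CPM (y axis, from 0) in the syringin and PBS libraries, with the replicate number as the marker shape and the mean ± SD in black. The groups are apart for Cacna1e, Cacna1g, Cacna1i and Cacna2d2. Those of Cacna1h overlap, at 35.6 to 50.6 CPM with syringin and 38.5 to 41.5 CPM with PBS.

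Of the T-type genes, Cacna1i and Cacna1g fell and Cacna1h did not pass the test. Cacna1i, the alpha1I subunit, whose currents inactivate slowly for a T-type channel, had 11.2, 8.503 and 8.32 CPM in the syringin libraries, against 20.9, 18.9 and 28.1 CPM in the PBS libraries. The highest syringin library was well below the lowest PBS library, and the mean fell to 0.41 times that of PBS (-1.28 ± 0.19, adjusted p = 0.0188). It was the largest change among the 10 genes. Cacna1g, the alpha1G subunit, known for burst firing in the thalamus, had 21.8, 19.6 and 30.97 CPM with syringin, against 37.9, 41.5 and 55.0 CPM with PBS. It fell to 0.54 times PBS (-0.89 ± 0.20, adjusted p = 0.0484, close to the threshold). Cacna1h, the alpha1H subunit, which is abundant in low-threshold and nociceptive sensory neurons, had 50.6, 35.6 and 47.2 CPM with syringin and 41.5, 38.5 and 39.4 CPM with PBS. Its groups overlapped, with syringin library 2 lowest of all 6 (0.16 ± 0.13, adjusted p = 0.525).

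Within single libraries the log2 ratio of Cacna1i to Cacna1h was -2.18, -2.07 and -2.51 with syringin, against -0.99, -1.02 and -0.49 with PBS, on the CPM scale. That of Cacna1g to Cacna1h was -1.21, -0.86 and -0.61 with syringin, against -0.13, 0.11 and 0.48 with PBS. Neither ratio overlapped between the groups. The differences between the group means were -1.42 and -1.05, with p = 0.1 for each by a two-sided exact permutation test, which is the smallest p that 3 libraries against 3 allow, and 0.133 after Benjamini-Hochberg adjustment over the 4 ratios computed. A smaller gap separated Cacna1e from Cacna1a (-0.39, exact permutation p = 0.1, adjusted 0.133), and the ratio of Cacna2d2 to Cacna2d1 overlapped (-0.44, exact permutation p = 0.3).

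Among the presynaptic high-voltage genes, Cacna1e fell and Cacna1a and Cacna1b did not pass the test. Cacna1e, the R-type alpha1E subunit, had 49.5, 33.1 and 42.5 CPM with syringin, against 64.3, 64.4 and 67.9 CPM with PBS. The PBS libraries lay close together and every syringin library was below them, at 0.64 times the PBS level (-0.65 ± 0.14, adjusted p = 0.043). Cacna1a, the P/Q-type alpha1A subunit of most fast synapses and of motor nerve endings, had 90.8, 66.2 and 79.8 CPM with syringin and 107.0, 86.4 and 93.5 CPM with PBS. Its syringin library 1 was above PBS library 2 (-0.28 ± 0.13, adjusted p = 0.261). Cacna1b, the N-type alpha1B subunit, had 35.3, 18.5 and 30.8 CPM with syringin and 48.3, 31.8 and 38.5 CPM with PBS (-0.49 ± 0.25, adjusted p = 0.28). In both groups Cacna1b was highest in library 1, a library with ganglion transcripts. The same held for Cacna1a, Cacna1c, Cacna1d, Cacna1h and Cacna2d1.

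The L-type genes did not pass. Cacna1c, the alpha1C subunit of neurons, heart and vessel muscle, had 37.96, 27.2 and 33.1 CPM with syringin and 45.7, 37.3 and 44.9 CPM with PBS. Only syringin library 1 reached into the PBS range (-0.38 ± 0.14, adjusted p = 0.158). Cacna1d, the alpha1D subunit, which contributes to persistent inward currents of motor neurons, had 39.6, 28.1 and 28.1 CPM with syringin and 46.2, 30.7 and 37.2 CPM with PBS (-0.25 ± 0.19, adjusted p = 0.469). Of 8 markers of smooth muscle and pericytes, cells that also use Cacna1c, none was called, beside 5.01% of all genes. With so few genes this count does not tell the list from all genes. The markers summed to 431 to 592 CPM with syringin and 435 to 475 CPM with PBS. The part of these cells in the level of Cacna1c was not tested.

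Of the alpha2delta genes, Cacna2d2 fell and Cacna2d1 did not pass. Cacna2d2, whose loss causes ataxia and seizures in ducky mice, had 26.0, 18.9 and 25.4 CPM with syringin, against 42.6, 36.5 and 50.2 CPM with PBS. The groups were apart by over 10 CPM at their nearest (0.54 times PBS, -0.88 ± 0.16, adjusted p = 0.0286). Cacna2d1, which sensory neurons raise after nerve injury, had 52.3, 22.2 and 44.3 CPM with syringin and 63.7, 44.9 and 45.2 CPM with PBS. Syringin library 2 was less than any other library, and syringin library 1 was above PBS libraries 2 and 3 (-0.37 ± 0.29, adjusted p = 0.497). Cacna2d3, a further alpha2delta gene outside the set of 10, also fell, to 18.2 ± 3.30 CPM with syringin against 34.8 ± 4.72 CPM with PBS (SD, n = 3 each; -0.94 ± 0.16, adjusted p = 0.0242).

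Compared per length, on the authors' FPKM scale, Cacna1a had the highest level in both groups, at 5.87 ± 1.05 FPKM with syringin and 7.21 ± 0.81 FPKM with PBS (SD, n = 3 each), apart from the gene next to it. With syringin the order continued with Cacna1h, Cacna2d1, Cacna2d2, Cacna1b, Cacna1g, Cacna1d, Cacna1e and Cacna1c, from 3.74 ± 0.73 to 1.37 ± 0.26 FPKM, each overlapping the next over its libraries, and ended with Cacna1i at 0.863 ± 0.170 FPKM, apart from Cacna1c. With PBS it continued with Cacna2d2, Cacna1g, Cacna2d1, Cacna1b and Cacna1h, from 5.03 ± 0.82 to 3.39 ± 0.14 FPKM, and, after a gap, Cacna1e, Cacna1d, Cacna1i and Cacna1c, from 2.41 ± 0.08 to 1.81 ± 0.20 FPKM. Within each of these runs neighbours overlapped. Cacna1h stood second of the 10 genes with syringin and sixth with PBS.

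Taken as shares of the summed FPKM of the 8 alpha1 genes, 4 genes had no overlap between the groups, whereas each of the 3 channel classes overlapped. The sum itself was 23.6, 15.9 and 20.7 FPKM with syringin, against 28.7, 24.1 and 28.4 FPKM with PBS, without overlap. T-type genes together held 31.5%, 34.3% and 36.0% with syringin and 31.3%, 36.6% and 38.9% with PBS, and P/Q, N and R types together 49.6% ± 1.5 with syringin and 49.2% ± 2.9 with PBS (SD, n = 3 each). Inside the T type, Cacna1h held 18.5%, 18.5% and 19.0% with syringin, against 12.4%, 13.6% and 11.8% with PBS. Cacna1i held 4.49%, 4.86% and 3.68% with syringin, against 6.86%, 7.35% and 9.31% with PBS. Cacna1a also held a larger share with syringin, 29.4% ± 1.0 against 26.6% ± 1.7 with PBS, and Cacna1e a smaller one, 7.51% ± 0.25 against 8.96% ± 0.78 with PBS, each without overlap. Shares sum to a fixed total, so the 4 genes are not separate results, and a larger share of Cacna1h does not by itself mean a higher level. The shares exist only among the alpha1 genes, so no rate over all genes stands beside this count, and it was not tested.

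**Figure D2:**
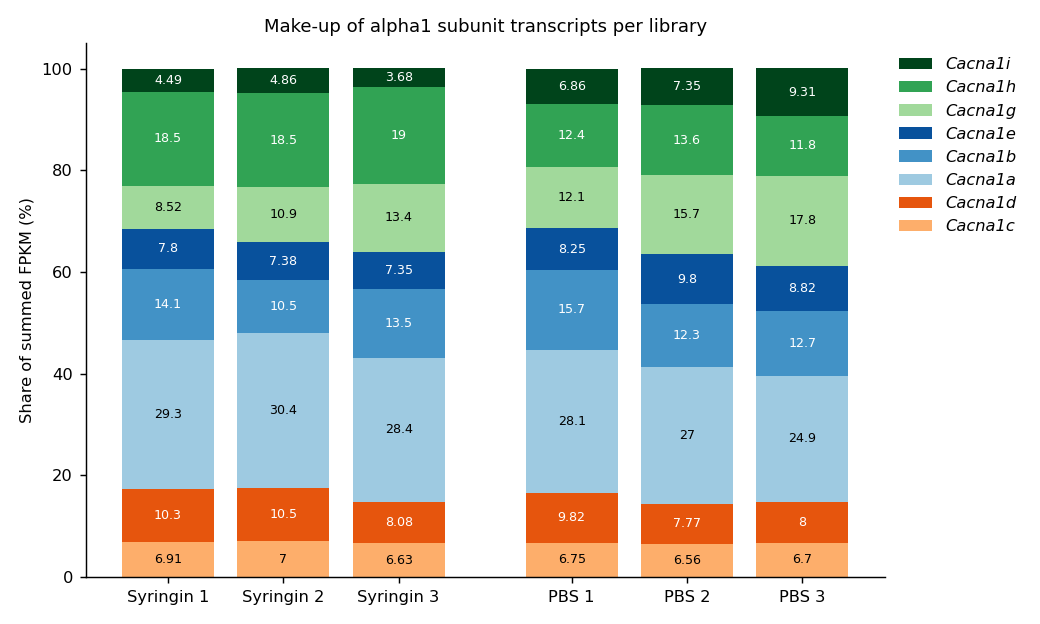
Share of each alpha1 gene in the summed FPKM of the 8 genes (y axis, %), one bar per library, syringin libraries on the left and PBS on the right, greens for the T type, blues for P/Q, N and R types and oranges for the L type. The Cacna1h segment is 18.5% to 19.0% with syringin and 11.8% to 13.6% with PBS.

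Neuronal markers moved in the same direction as the called genes. Of 16 general neuronal markers 9 were lower and none higher (median log2 fold change -0.76), beside 3.39% lower and 1.62% higher of all genes. Their summed level was 2662 to 3932 CPM with syringin and 4798 to 6155 CPM with PBS. Inhibitory neuron markers held 3 lower genes of 6 (median -1.07), motor neuron markers 4 of 6 (median -1.36) and excitatory neuron markers 2 of 6 (median -0.70). The excitatory genes called lower encode glutamate receptor subunits, while the vesicular glutamate transporter genes in that list were not called. Likewise, the inhibitory genes called lower include a glycine receptor subunit gene, while the GABA synthesis genes of that list had negative fold changes and were not called. In bulk tissue, fewer neurons and less RNA per neuron cannot be told apart. Infiltrating monocyte and macrophage markers held 3 higher genes of 9 (median 1.05), at 2579 to 6026 CPM with syringin and 1927 to 2817 CPM with PBS. Astrocyte markers summed to 4873 to 6739 CPM with syringin and 7340 to 8875 CPM with PBS, with 3 of 8 lower, and Schwann cell markers to 175 to 351 CPM with syringin and 404 to 1455 CPM with PBS, with 1 of 6 lower. The part of these cell types in the channel results was not tested. The fold changes of Cacna1i, Cacna1g and Cacna2d2 were below the neuronal median, and those of the other 7 genes above it, a difference that was not tested.

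The ganglion markers divided the libraries across treatment, and within each side the direction of 9 genes was the same. In the 4 called genes every syringin library lay below every PBS library, so any split would give negative ratios. Their agreement was therefore fixed in advance. On each side 1 group was a single library, so the split cannot show that a direction holds apart from ganglion content. Among libraries with ganglion transcripts, 2 syringin and 1 PBS, the log2 ratio of mean CPM was -1.10 for Cacna1i, -0.52 for Cacna1g, -0.48 for Cacna1e and -0.73 for Cacna2d2. In the other 3 libraries, 1 syringin and 2 PBS, it was -1.47, -1.30, -1.0 and -1.20 for the same genes. The syringin library there, library 2, also had the lowest summed neuronal markers of all libraries, at 2662 CPM. Its infiltrating monocyte and macrophage markers were the highest, at 6026 CPM. The part of these differences in the larger ratios was not tested. Cacna1h had 0.24 in the libraries with ganglion transcripts and -0.13 in those without, so its sign differed. With the mean of the ganglion markers as a covariate in edgeR, 11.5% of all genes and 8 of the 10 passed. The additional genes were Cacna1a (-0.34 ± 0.09, adjusted p = 0.0434), Cacna1b (-0.65 ± 0.13, adjusted p = 0.0229), Cacna1c (-0.44 ± 0.12, adjusted p = 0.0489) and Cacna2d1 (-0.60 ± 0.14, adjusted p = 0.0322). Cacna1d and Cacna1h did not pass in that fit.

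**Figure D3:**
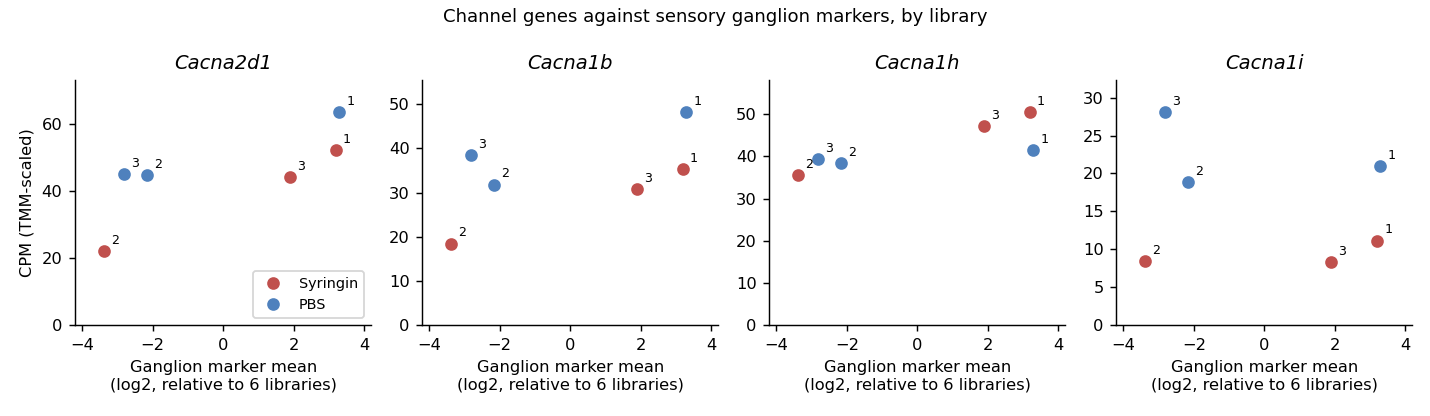
CPM of Cacna2d1, Cacna1b, Cacna1h and Cacna1i (y axes, from 0) against the mean log2 level of 10 sensory ganglion markers relative to the 6 libraries (x axes), 1 point per library with its replicate number. Syringin library 2, at -3.38, is the lowest library for Cacna2d1, Cacna1b and Cacna1h, whereas for Cacna1i the syringin libraries, at 8.32 to 11.2 CPM, lie below PBS on both sides. That library is also the lowest for Cacna1a, Cacna1c, Cacna1e, Cacna1g and Cacna2d2, which are not drawn here, and for the summed neuronal markers, at 2662 CPM.

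These are long transcripts, and the calls of Cacna1e and Cacna1g were lost under a joint correction for transcript length and GC content; the part of each alone was not tested. The longest annotated transcripts of the 10 genes ran from 5807 to 14921 bases, where the median of all tested genes was 2850. When each library was corrected for transcript length and GC content, 517 genes were called higher and 635 lower, in place of 359 and 749, and 5.21% of all genes passed. Cacna1i (-1.05 ± 0.17, adjusted p = 0.0211) and Cacna2d2 (-0.78 ± 0.15, adjusted p = 0.0348) passed, while Cacna1e (-0.41 ± 0.13, adjusted p = 0.102) and Cacna1g (-0.71 ± 0.20, adjusted p = 0.0766) did not. Cacna1h was 0.36 in that fit, against 0.16 uncorrected, and was not called (adjusted p = 0.101). Single libraries mattered as well: without PBS library 3 edgeR called no gene of the 10 and 0% of all genes, 3449 genes having an unadjusted p under 0.05, with Cacna1i at -1.09 ± 0.18 (adjusted p = 0.106), Cacna2d2 at -0.75 (0.154), Cacna1e at -0.63 (0.197) and Cacna1g at -0.72 (0.205). With any 1 library left out in edgeR, Cacna1g missed the threshold each time (adjusted p 0.0512 to 0.205), Cacna1e and Cacna2d2 passed only without syringin library 1, and Cacna1i missed it without syringin library 3 (adjusted p = 0.0627) and without PBS library 3. DESeq2 without PBS library 3 called all 4, beside 6.64% of all genes. With limma on log2(FPKM + 0.1) and log2(FPKM + 1), Cacna1i and Cacna2d2 passed and Cacna1e and Cacna1g did not, beside 3.2% and 3.23% of all genes.

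**Figure D4:**
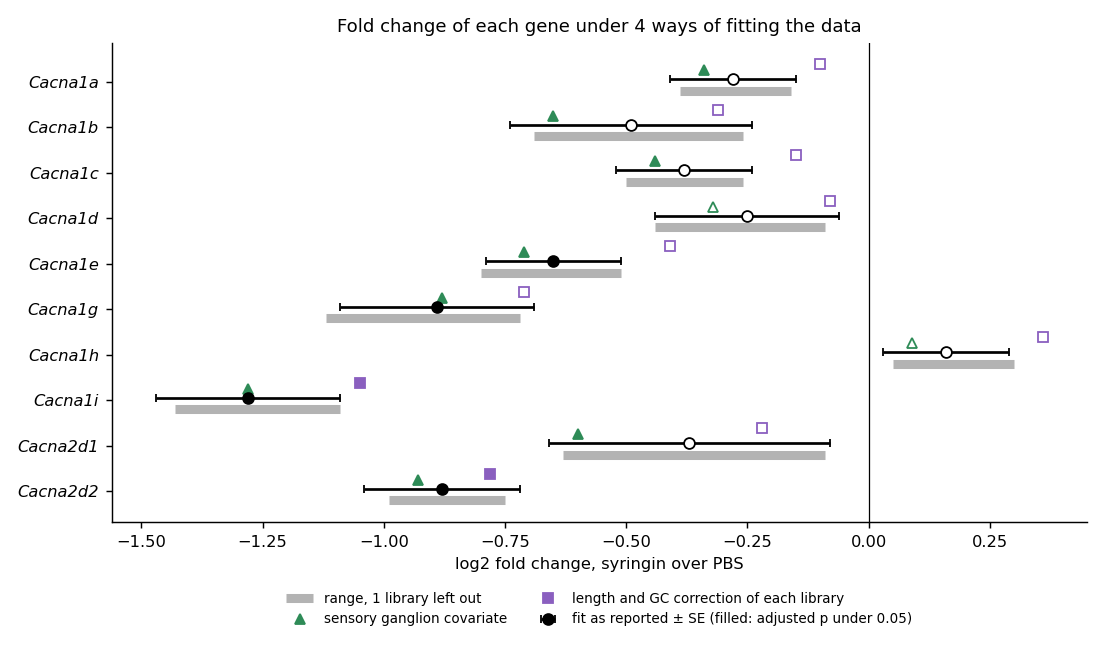
Log2 fold change of each gene, syringin over PBS (x axis), in the fit as reported with its standard error, with the ganglion covariate, with the length and GC correction, and as the range over fits that leave out 1 library; filled symbols passed an adjusted p of 0.05. Cacna1i lies furthest to the left, and Cacna1h is the only gene right of 0, at 0.05 to 0.36.

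Of all genes tested 3.39% were lower and 1.62% higher. The remaining channel subunits, tested in 15 of 16 genes, held 3 lower and no higher gene (median log2 fold change -0.36). They were Cacna2d3, given above, the beta subunit gene Cacnb2 and Cacng2. Cacnb2, of a family that brings alpha1 subunits to the membrane, had 15.8, 11.7 and 14.3 CPM with syringin, against 24.7, 19.2 and 23.6 CPM with PBS (-0.69 ± 0.16, adjusted p = 0.048). Cacng2, or stargazin, named as a channel gamma subunit and best known as a partner of AMPA receptors, had 14.8, 12.7 and 11.9 CPM with syringin, against 37.4, 29.7 and 39.7 CPM with PBS (-1.44 ± 0.15, adjusted p = 0.0102). Both sets of libraries were apart. Cacng7, Cacnb4 and Cacnb3, the most abundant of those not called, had values of -0.39 ± 0.11, -0.27 ± 0.21 and 0.03 ± 0.27. The skeletal muscle alpha1 gene Cacna1s was at 0.167 ± 0.139 CPM with syringin and 0.339 ± 0.070 CPM with PBS.

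Of 20 channel partners, 6 were lower and 1 higher (median -0.60), beside 3.39% lower and 1.62% higher of all genes. Snap25 and Syt1 of this list were also counted among the general neuronal markers above. Rims1, an active zone scaffold that tethers calcium channels, had 16.9 ± 4.01 CPM with syringin and 37.7 ± 4.55 CPM with PBS (SD, n = 3 each; -1.15 ± 0.18, adjusted p = 0.0207). Snap25 of the release machinery (-0.93 ± 0.20), the sodium leak channel gene Nalcn (-0.98 ± 0.11) and the calcium-binding channel regulator Cabp1 (-0.72 ± 0.16) were also lower. The gene that rose was Thbs1, which encodes a secreted thrombospondin, a family with members that bind the alpha2delta protein of Cacna2d1. It had 978, 1754 and 1262 CPM with syringin, against 578, 417 and 722 CPM with PBS (1.22 ± 0.26, adjusted p = 0.041), and macrophages also express it. Thbs2, Unc13a and Syt1 did not pass, at 0.10 ± 0.13, -0.68 ± 0.19 and -0.75 ± 0.25.

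Genes of calcium release and removal held 4 lower and no higher member of 20 (median -0.32), beside 3.39% lower and 1.62% higher of all genes. The plasma membrane pump genes Atp2b2 and Atp2b3 fell, by 1.24 ± 0.14 and 1.36 ± 0.28 on the log2 scale (adjusted p = 0.0114 and 0.0395 in edgeR). Atp2b2 had 78.5, 59.7 and 73.8 CPM with syringin, against 178, 140 and 183 CPM with PBS. The ryanodine receptor gene Ryr2, a calcium release channel, and the exchanger gene Slc8a3 had values of -1.0 ± 0.16 and -0.66 ± 0.14 and were lower. The widely expressed pumps Atp2a2, Atp2b1 and Atp2b4 did not pass, at -0.24 ± 0.10, 0.01 ± 0.11 and -0.05 ± 0.08.

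**Figure D5:**
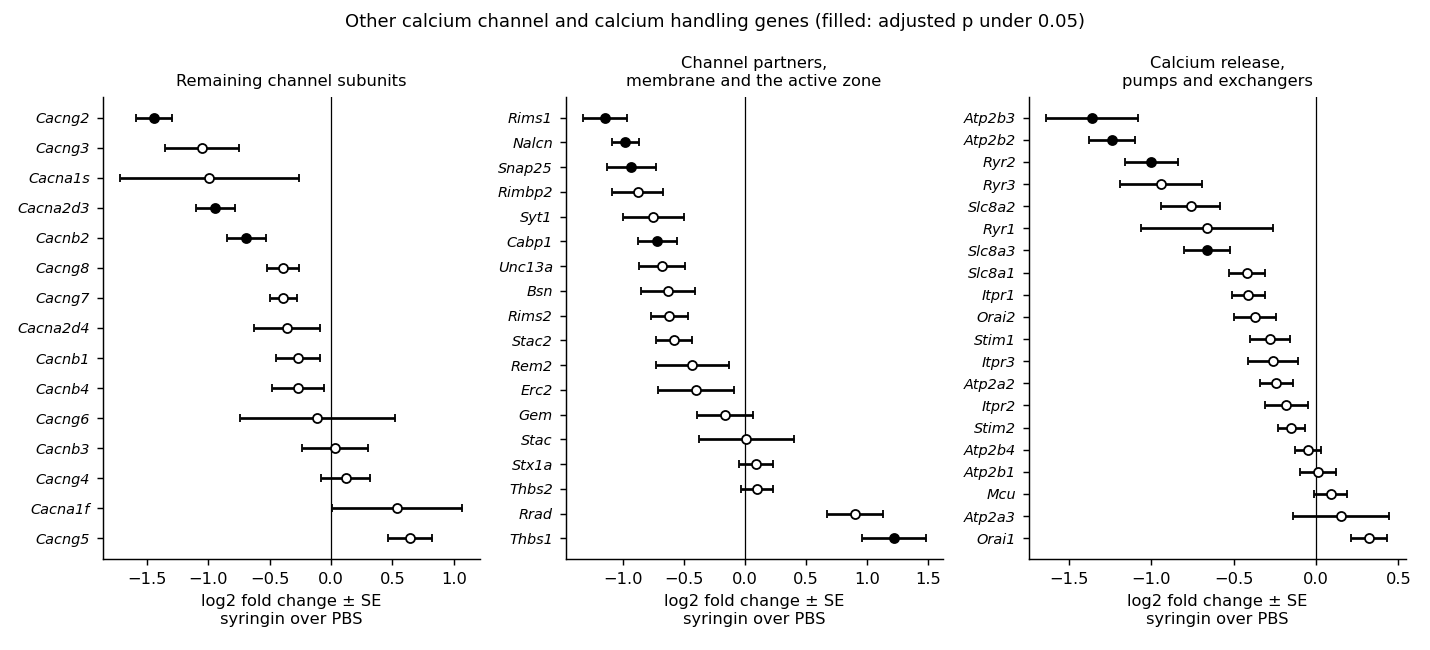
Log2 fold change ± standard error (x axes), syringin over PBS, of the remaining channel subunits, 18 of the channel partners and the genes of calcium release and removal; filled points passed an adjusted p of 0.05. The filled points lie left of 0 except Thbs1, at 1.22.

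Start-site sequence was compared because Cacna1e, Cacna1g, Cacna1i and Cacna2d2 were each lower with syringin. RefSeq promoter windows of GRCm38.p6, from 250 bases before to 50 after a start site, matched 7 of the 10 genes with 10 windows, and Cacna1a, Cacna1g and Cacna1h were not matched. The windows of the other 3 called genes are shown 5′ to 3′, with the GC box GGGCGG, searched on both strands, in capitals.
Cacna1e, chr1:154725871-154726170, minus strand: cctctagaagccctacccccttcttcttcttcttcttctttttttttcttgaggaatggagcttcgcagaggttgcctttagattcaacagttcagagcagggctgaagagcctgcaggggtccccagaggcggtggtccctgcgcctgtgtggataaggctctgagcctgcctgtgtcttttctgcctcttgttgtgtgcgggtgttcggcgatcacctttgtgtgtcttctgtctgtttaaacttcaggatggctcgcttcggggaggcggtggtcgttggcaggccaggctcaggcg
Cacna1i, chr15:80286988-80287287, plus strand: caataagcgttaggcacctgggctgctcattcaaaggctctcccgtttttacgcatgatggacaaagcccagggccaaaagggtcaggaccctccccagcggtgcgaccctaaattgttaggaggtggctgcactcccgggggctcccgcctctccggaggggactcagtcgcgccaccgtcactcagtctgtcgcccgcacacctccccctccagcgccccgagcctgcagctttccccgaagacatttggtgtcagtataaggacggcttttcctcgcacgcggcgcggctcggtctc
Cacna2d2, chr9:107399630-107399929, plus strand: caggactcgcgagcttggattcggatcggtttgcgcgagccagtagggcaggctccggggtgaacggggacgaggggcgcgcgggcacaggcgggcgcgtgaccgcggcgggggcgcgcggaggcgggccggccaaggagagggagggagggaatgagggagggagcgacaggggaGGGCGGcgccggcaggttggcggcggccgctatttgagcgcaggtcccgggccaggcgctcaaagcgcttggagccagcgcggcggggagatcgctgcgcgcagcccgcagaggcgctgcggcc
The windows of Cacna1e and Cacna2d2 lie inside the annotated genes, at starts downstream of the first. Cacna2d2 held 1 GC box at 75.7% G and C, and Cacna1i and Cacna1e held none, at 62.7% and 55.3%. Over all members 5 of 10 windows held the box, beside 35.7% of 32851 promoter windows, and 1 held the TATA box TATAAA, beside 13.6%. The letters TGACGTCA, CACGTG and TTCAGCACC, searched likewise, were in none of the 10 windows and in 1.79%, 7.15% and 0.371% of all.

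By the GRCm38 annotation the 10 genes lie on 10 chromosomes: Cacna1i on chr15:80287238-80398279, Cacna1g on chr11:94408391-94474198, Cacna1e on chr1:154390731-154884501, Cacna2d2 on chr9:107399612-107529343, Cacna1h on chr17:25374285-25433783, Cacna1a on chr8:84388440-84640246, Cacna1b on chr2:24603887-24763152, Cacna1c on chr6:118587240-119196418, Cacna1d on chr14:30039939-30491455 and Cacna2d1 on chr5:15934691-16374511, with spans of 59 to 609 kb over all 10. Cacna1c and Cacna1d overlap genes on the opposite strand with at least 717 counts in every library, Dcp1b for Cacna1c and Chdh and Dcp1a for Cacna1d, so some of their counts are uncertain if counting ignored strand. The 4 called genes overlap no gene with more than 5 counts.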

How the data were processed

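Per the labels' protocols, TRIzol served for extraction and the TruSeq Stranded mRNA kit for the libraries. The submitters' processing notes name HISAT2, StringTie and the builds GRCm38 and mm10. For each gene in each library the authors deposited FPKM and an estimated count. Estimated counts are whole numbers, and FPKM are scaled by transcript length and library size. Strand use and the treatment of shared reads are not given in the sources used here. The deposited start matched GRCm38 for 0 of the 10 genes although all 10 gene IDs did, so printed coordinates come from GENCODE M21 and sequences from GENCODE M21 and RefSeq.

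The members, gene lists, tests and alternatives were chosen with earlier results of these data known. All members are named, and of the 3 calcium lists the called genes and the 3 most abundant uncalled ones, except 2 called genes that are not reported here; marker lists are given by counts. Counts were scaled by TMM, filtered with filterByExpr (minimum count 10, total 15) and fitted with edgeR 4.0.16's robust quasi-likelihood model (R 4.3.3), treatment being its single term; p-values are two-sided. SE was taken as |log2 fold change| divided by √F. The p-values measure only the spread between these libraries. The common biological coefficient of variation was 24.9%. Alternatives used limma 3.58.1 and DESeq2 1.42.0. The length and GC correction used splines with 4 degrees of freedom and was added after the data were seen, as were DESeq2 and limma-voom without PBS library 3. Pore loops were found in the longest reading frames with Biopython 1.88. The edgeR fit and the correction were tested on simulated counts.

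The labels number replicates 1 to 3 in each group. Deviations from the group means correlated by 0.493, 0.246 and 0.064 for equal numbers, which does not decide whether the numbers are pairs. The main fit did not use them as pairs, and a fit with the number as a block is given below.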

Additional observations from a re-analysis of the deposited data

How the results depend on the processing

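Over all genes edgeR called 1108. DESeq2 called 3191, limma on log2(FPKM + 0.1) and on log2(FPKM + 1) 707 and 715, the ganglion covariate 2533 and limma-voom without PBS library 3 0, with 3532 genes at an unadjusted p under 0.05. Leaving out 1 library gave 0 to 1944 calls; the 0 was without PBS library 3, where edgeR gave 3449 genes an unadjusted p under 0.05 and DESeq2 called 1468. Of the 10 channel genes 4 were called as reported, 2 on either FPKM scale, 2 with the length and GC correction, 8 with the ganglion covariate, 0 by limma-voom without PBS library 3 and 0 to 3 with 1 library left out. Of the other calcium genes 14 were called as reported, 29 by DESeq2, 8 on either FPKM scale, 26 with the ganglion covariate, 0 by limma-voom without PBS library 3 and 0 to 20 with 1 library left out. With the replicate number as a block 2557 genes, 6 of the 10 and 26 other calcium genes were called; Cacna1b and Cacna1c were added (adjusted p = 0.0337 and 0.0382 in edgeR). Syringin library 2 correlated more with PBS library 3 (0.309) than with PBS library 2 (0.246), so not every library correlated best with its own number.

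No gene of the 10 changed sign in 23 alternatives each. All alternatives reuse the same libraries and many differ little from the main fit, so they are not separate results. In the 4 called genes the groups did not overlap, so leaving out 1 library could hardly reverse the sign. Cacna1i passed in 20 of them (-1.43 to -0.74), Cacna2d2 in 17 (-0.99 to -0.71), Cacna1e in 13 (-0.80 to -0.41) and Cacna1g in 12 (-1.12 to -0.69). Library totals without composition factors left Cacna1e at an adjusted p of 0.0506, and edgeR without robust estimation left Cacna1g at 0.0506. Cacna1h ranged from 0.05 to 0.36 and was never called.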
